A study of Laccaria bicolor with 20 samples.

Results

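The genes described here are 68 gene models of the ectomycorrhizal fungus Laccaria bicolor, out of 23130 models listed in all, whose transcripts were higher both in medium without NH4+ salts (−N) and in medium with reduced glucose (−C) than in control medium. They were chosen from the read counts themselves. Each count was expressed as CPM, its share of the library total on the usual common scale, the CPM were averaged per medium, and L was taken as log2((CPM + 1)/(control CPM + 1)), so that L is 0 where a medium equals the control and understates the change of weakly expressed genes. A member had a control mean of at least 0.3 CPM, L of at least 0.8 in both −N and −C, L between -0.7 and 1.5 in surplus NH4+ (+N), and L under 0.7 in surplus phosphate (+P). Of the 23130 models, 14533 reached the control minimum, 572 of these also passed in −N, and 131 in both −N and −C. The limits on +N left 112 of the 131, and the limit on +P left the 68 members. The levels in control, −N, −C, +N and +P therefore describe how the genes were chosen and were not tested.

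Mycelium of strain S238N was pre-cultured for 2 weeks on cellophane over agar with modified Melin-Norkrans (MMN) medium, then given 1 week at 25 °C on 1 of 7 media. All 7 contained 0.5% malt extract and 1% casein hydrolysate, so that organic nitrogen and some sugars were present also in −N and −C. Control medium held 0.5% glucose, 1.89 mM (NH4)2HPO4 and 3.67 mM KH2PO4. In −N the NH4+ salts were removed and the phosphate was made up with KH2PO4. The −C medium held only 0.02% glucose, and surplus glucose (+C) meant 2%. The +N and +P media received 25 mM NH4Cl2 and 25 mM KH2PO4, in that order, whereas phosphate removal (−P) dropped all phosphate salts, with NH4Cl2 restoring the NH4+. Each medium had 3 libraries labelled as biological replicates, except +P with 2, which gave 20 libraries of 9470656 to 33122623 counted reads.

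Ectomycorrhizal fungi exchange soil nitrogen and phosphate for sugars of their host tree, and free-living mycelium has to draw both nitrogen and carbon from its surroundings. Ascomycete fungi and yeasts limit the genes for poorer sources while ammonium or glucose is plentiful, through the nitrogen and carbon catabolite repression systems, and release that limit when either runs short. Transporters, kinases that relay nutrient signals, and enzymes that recycle cell material are among the genes known to respond to shortage of more than 1 nutrient.

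The rule set the same limit of 0.8 in −N and −C, so that close medians in the 2 media follow in part from the choice. The median L was 0.96 in −N, with a range of 0.80 to 2.12, and 0.98 in −C, with a range of 0.80 to 2.99. Over all 14533 genes at the control minimum the medians were 0.09 and 0.05. In −N all 68 members had their 3 libraries above the 3 controls, a pattern that 29.8% of all genes at the control minimum showed. In −C this held for 67 of 68 members, with 30.6% of all genes, and it held in both media for 67 members, with 14.5% of all genes. As these contrasts chose the members, nothing is read from the counts. The member whose libraries overlapped was JGI-634054. Summed over the 68 members, the level was 1578 CPM in control, 3596 in −N and 3678 in −C. A bulk library cannot tell more transcript per hypha from a larger part of the colony that expresses a gene.

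**Figure D1:**
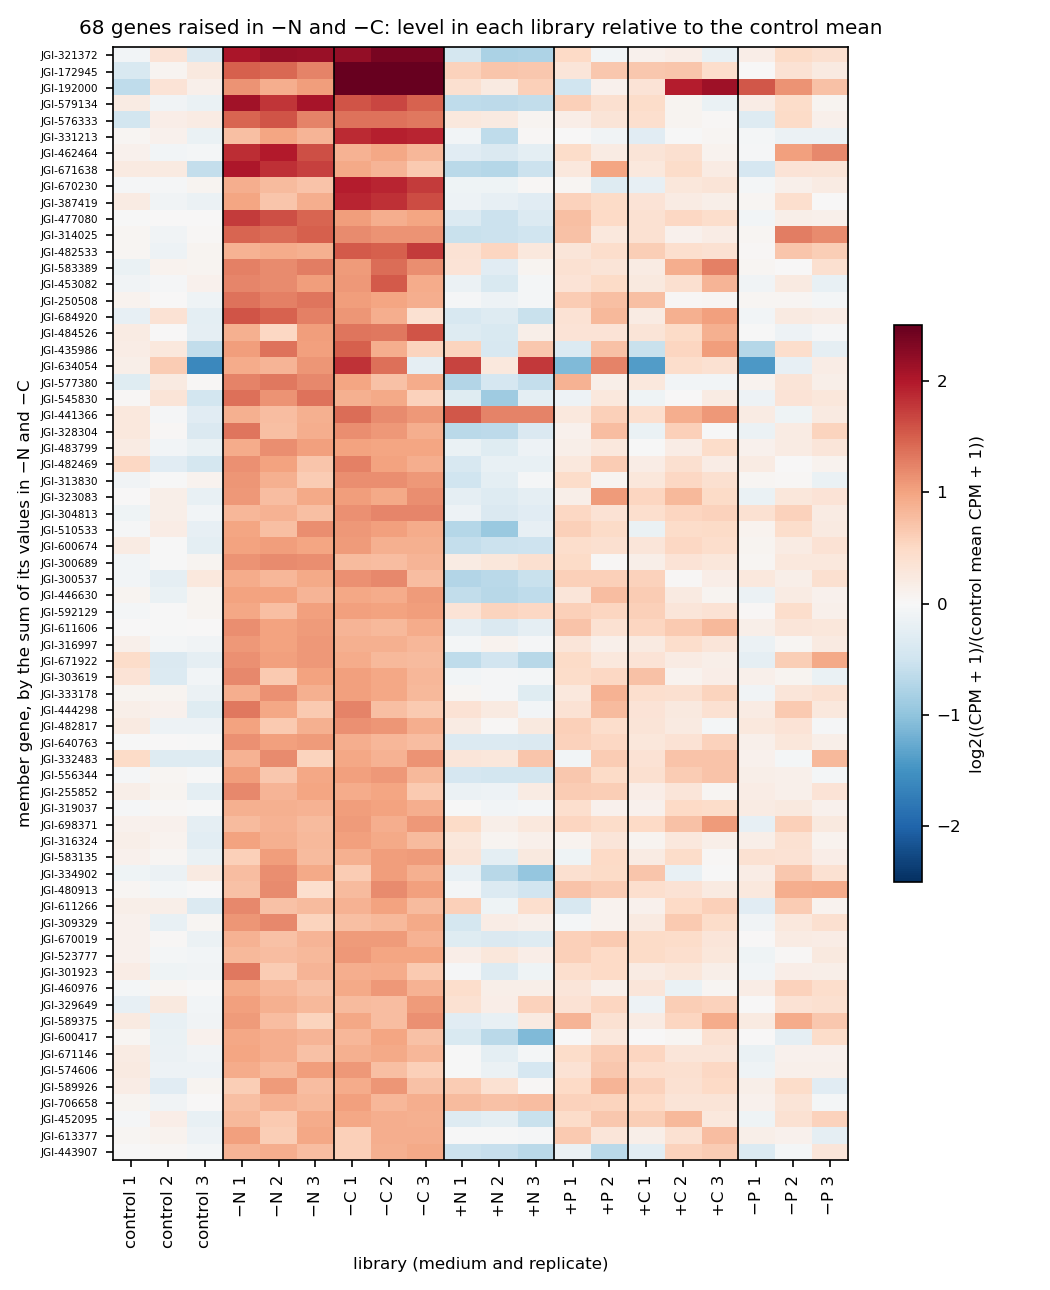
Level of each of the 68 members (vertical axis, ordered by the sum of L in −N and −C) in each of the 20 libraries (horizontal axis, by medium and replicate), as log2((CPM + 1)/(control mean CPM + 1)), with colours capped at 2.5 in either direction. The −N and −C columns are raised from top to bottom, which the choice of members fixes, while the +N, +P, +C and −P columns differ from gene to gene.

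The 38 members whose 6 −N and −C libraries all lay above the 14 libraries of the other media made up the more exclusive end of the group, and 2.47% of all genes at the control minimum had this pattern. The rule set limits in −N, −C, +N and +P against control, so this pattern follows in part from the choice. Nothing is read from the count. The remaining members reached the range of the shortage media in at least 1 library of another medium. Most members were weakly expressed. In control medium 35 of 68 lay under 5 CPM, 20 between 5 and 20 CPM and 13 at 20 CPM or more. Their median of 4.77 CPM compares with 18.9 CPM over all genes at the control minimum. In single libraries the members had 2 to 25913 reads.

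**Figure D2:**
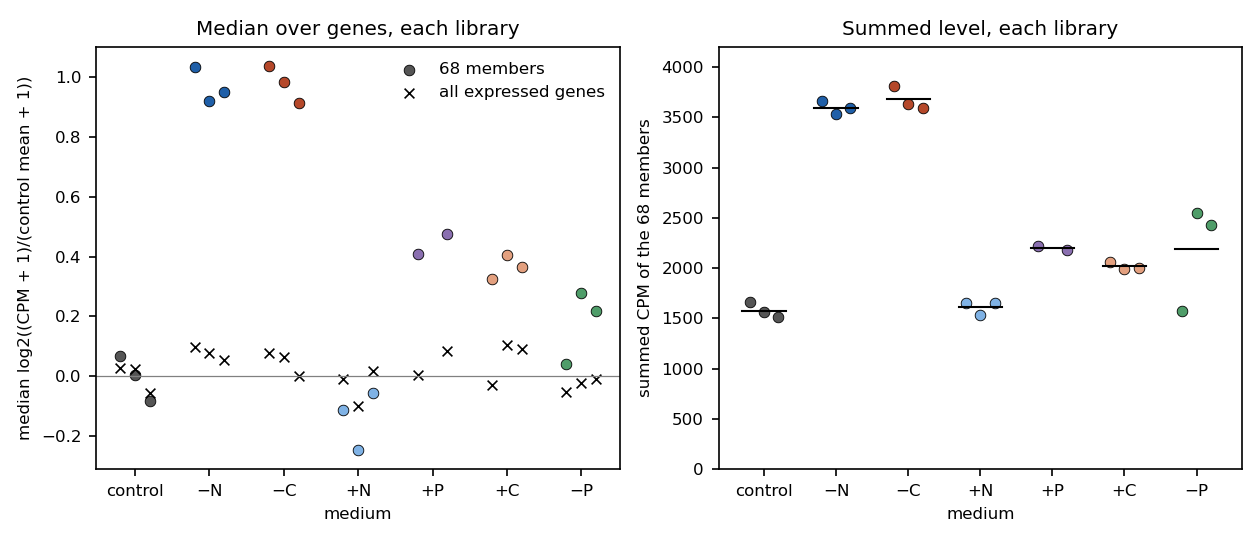
Median over the 68 members (filled points) and over all expressed genes (crosses) of log2((CPM + 1)/(control mean CPM + 1)) in each library (left, by medium), and the summed CPM of the members in each library with the mean as a bar (right, axis from 0). The 6 −N and −C libraries have member medians of 0.91 to 1.04, the other 14 libraries lie between -0.25 and 0.48, and the summed level of the first −P library, 1576 CPM, sits among the controls.

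Library names ended in the letter i, whose meaning is not given in the sources used here, for all 3 −N libraries, the first control and the third −P library. The median L of the members was 0.07 in that control and 0.22 in that −P library, against 0.92 to 1.03 in the −N libraries. Within −N the letter and the medium cannot be told apart. No −C library carried it. Some libraries stood apart within their medium. The first +C library and the first −P library differed more from their replicates than those did from each other, with chi-square values per degree of freedom of 20.5 and 27.1 against 1.94 in +C, and of 15.6 and 21.3 against 6.15 in −P. The third −C library and the second +N library also stood apart from their replicates, with 9.78 and 12.1 against 2.19 and with 8.27 and 10.5 against 3.75. Without these the rule gave 69 genes, 63 of them among the 68, and 67 genes, all among the 68. Calls that rest on the first +C or the first −P library are given below with and without them.

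The largest combined rise belonged to JGI-321372, a gene without annotation in the sources used here. Its level was 1.34, 2.09 and 0.92 CPM in the 3 controls, 9.03, 10.04 and 9.88 CPM in −N, and 10.2, 11.7 and 11.6 CPM in −C. The lowest shortage library thus stood far above the highest control, and L was 2.12 in −N and 2.31 in −C. It was the only member over 2 in both media. In +N it went the other way, to 0.82, 0.42 and 0.44 CPM, below each control.

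JGI-172945 and JGI-192000 came next and were highest in −C. JGI-172945, annotated through its Coprinopsis cinerea homologue with a cerato-platanin domain, a fold found in small secreted fungal proteins that act at cell walls and surfaces, had 2.21, 3.36 and 3.99 CPM in control and 30.6, 28.0 and 29.7 CPM in −C. In −N it reached 10.8, 10.3 and 8.93 CPM, so that no shortage library overlapped the controls but −N stayed well short of −C. JGI-192000 carries the RefSeq symbol Lbrcb3, a name used in mushrooms for pheromone receptors of the B mating-type locus. Its level was 1.92, 4.71 and 3.92 CPM in control, 8.78, 7.45 and 8.35 CPM in −N, and 33.7, 33.7 and 36.9 CPM in −C, which gave it the highest L of any member in −C, 2.99, with 1.02 in −N. This gene was also high in media outside the rule, with 4.70, 16.7 and 18.7 CPM in +C and 12.2, 8.84 and 6.51 CPM in −P, where the first +C library stood at the level of the controls.

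Other members leaned towards NH4+ removal. JGI-579134 had 4.94, 3.84 and 3.598 CPM in control, 21.0, 16.7 and 20.5 CPM in −N and 14.3, 15.4 and 13.3 CPM in −C. JGI-462464 had 13.1, 11.4 and 11.7 CPM in control, 46.2, 50.5 and 39.0 CPM in −N and 22.9, 24.8 and 22.4 CPM in −C. In JGI-671638 the level was 36.3, 36.5 and 20.3 CPM in control, 129.5 in the first −N library with 113 and 104 CPM in the others, and 61.1, 56.4 and 49.5 CPM in −C. All 3 genes lack an annotation here, their −N libraries lay above their −C libraries without overlap, and L in −N was 1.99, 1.82 and 1.86 against 1.58, 0.90 and 0.82 in −C. By contrast JGI-331213, also without annotation, rose to 24.9, 26.5 and 25.7 CPM in −C but only to 11.1, 13.1 and 11.9 CPM in −N, from 6.39, 6.73 and 5.36 CPM in control. Across the 68 members L was larger in −N for 32 and in −C for 36, and the 2 values differed by more than 0.5 in 11, of which 7 were higher in −C and 4 in −N. L exceeded 1 in both media for 10 members.

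**Figure D3:**
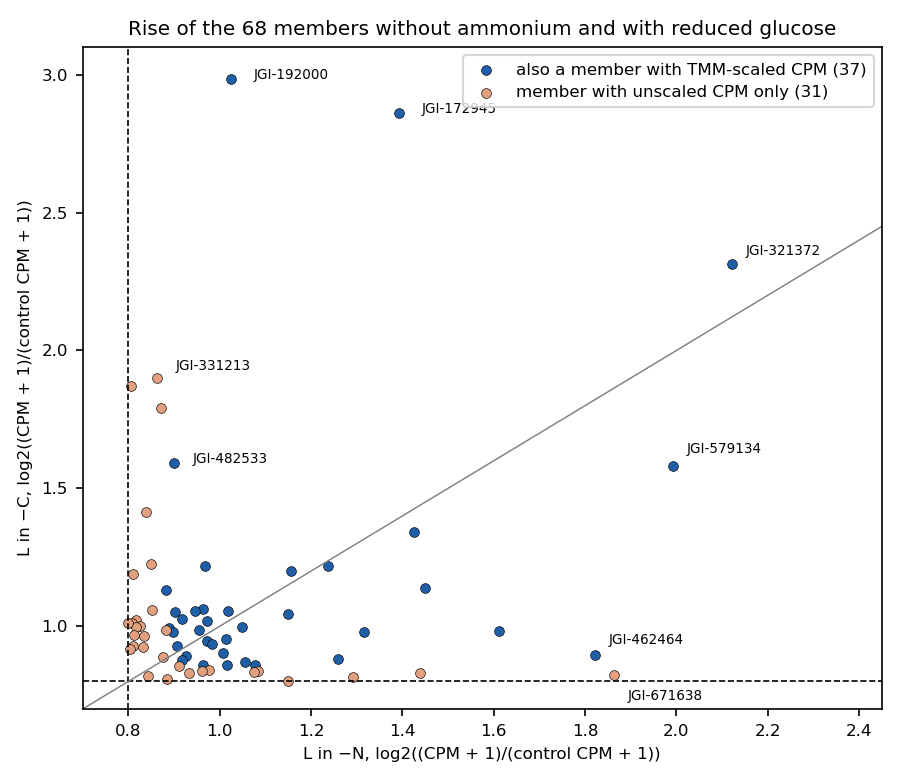
L in −N (horizontal axis) against L in −C (vertical axis) for the 68 members, both as log2((CPM + 1)/(control CPM + 1)), with the limit of 0.8 dashed and equality as a grey line. Blue points are the 37 that also meet the rule with TMM-scaled CPM and orange points the 31 that do not, most of them along a limit, while JGI-192000 and JGI-172945 stand out in −C, JGI-579134 and JGI-462464 in −N, and JGI-321372 in both.

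The members with the highest levels per length, averaged over all libraries as RPKM (reads scaled by transcript length and mapped total), were JGI-482533 with 288 RPKM and JGI-314025 with 270.5 RPKM, against a median of 9.39 RPKM over the 68. Neither has an annotation here, and together they supplied 46.0% of the members' summed CPM in control medium. JGI-314025 had 458, 417 and 447 CPM in control, 1216, 1156 and 1244 CPM in −N and 999 in the first −C library with 960.1 and 958 CPM in the others. JGI-482533 had 296, 261 and 299 CPM in control, 525, 544 and 532 CPM in −N and 828, 804 and 955 CPM in −C. Both were thus raised in all 6 shortage libraries, but the first was higher in −N and the second in −C, without overlap between the shortages. JGI-671146 (159 RPKM) and JGI-671638 (135 RPKM) followed, and JGI-671146 was raised to 138 ± 12.2 CPM in −N and 139 ± 5.00 CPM in −C from 74.5 ± 9.77 CPM in control (SD, n = 3 each).

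JGI-634054, the fifth by level per length with 78.4 RPKM, had libraries that disagreed within each medium except −N. It read 72.4, 101.5 and 20.7 CPM in control, 125, 118 and 140.3 CPM in −N, and 230 in the first −C library with 171 and 55.6 CPM in the others. In +N it read 212, 77.7 and 222 CPM, the highest mean of any medium. Low libraries also occurred in +C, −P and +P, at 24.1, 23.2 and 29.7 CPM in the first library of each. Its membership rests on means over libraries that differ several-fold, and the cause was not tested.

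**Figure D4:**
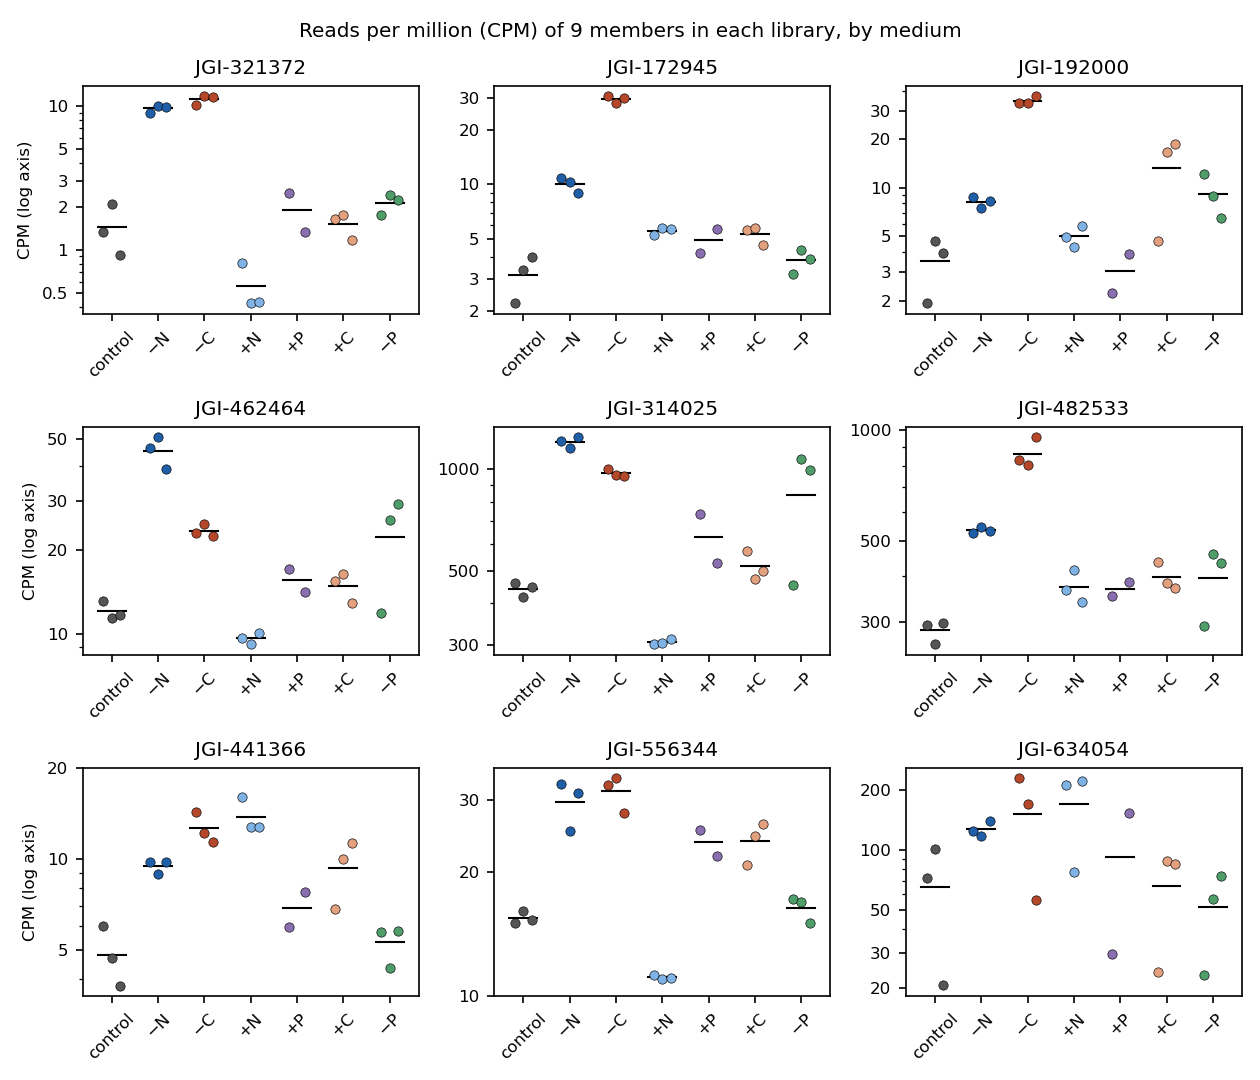
Level in CPM (log axis) of 9 members in each library by medium, with the mean as a bar. JGI-321372, JGI-172945 and JGI-192000 show the strongest combined rise, JGI-314025 and JGI-462464 have 2 high and 1 low −P library, JGI-556344 and JGI-441366 are higher in +C than in −P, and JGI-634054 varies within most media.

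Annotation text was found for 25 of the 68 members, and over all genes at the control minimum 20.2% had any. Counts by function are therefore small and are a description. Membrane transporters formed the largest group, with 6 of the 25 annotated members, where 9.34% of all annotated genes are on this list. JGI-600674, of the major facilitator superfamily to which fungal sugar transporters belong, had the highest level of these per length, 43.5 RPKM on average, and had 62.7, 53.8 and 45.7 CPM in control, 109, 113 and 109 CPM in −N and 114, 102 and 101 CPM in −C. JGI-250508, an ABC transporter, of the ATP-driven pumps that export metabolites and drugs, had 51.1, 48.1 and 44.4 CPM in control, 124, 115 and 123 CPM in −N and 100.1, 95.7 and 90.2 CPM in −C. Both kept all shortage libraries above every library of the other media.

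The other 4 transporters were less abundant. JGI-304813, a second major facilitator, rose to 16.2 ± 0.69 CPM in −N and 21.3 ± 0.67 CPM in −C from 8.78 ± 0.97 CPM in control (SD, n = 3 each). JGI-316997, of the solute:sodium symporter family, had an L of 1.06 in −N and 0.87 in −C. JGI-523777, a nucleotide-sugar transporter, a type that carries activated sugars into the Golgi for glycan synthesis, had 0.80 and 1.014, and JGI-671922, an ABC transporter-like ATPase, 1.08 and 0.84. The list of sugar transport and carbohydrate enzymes held 4 members, with 7.19% of annotated genes, namely JGI-600674, JGI-523777, JGI-477080 by the words of its annotation and JGI-300689. JGI-300689 belongs to polysaccharide lyase family 8, whose known members cleave acidic polysaccharides, and had 49.1, 51.3 and 54.6 CPM in control, 114, 118 and 116 CPM in −N and 90.3, 88.3 and 94.1 CPM in −C.

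Redox enzymes numbered 3 of 25, with 12.3% of annotated genes. JGI-477080, a cytochrome b561/ferric reductase with a DOMON domain, of the membrane proteins that pass electrons across a membrane, was steady at 13.9, 14.1 and 14.1 CPM in control and rose to 49.7, 44.9 and 40.4 CPM in −N and 30.1, 27.2 and 28.8 CPM in −C. JGI-670230, an FAD-binding monooxygenase with a phenol hydroxylase domain, an enzyme type that adds oxygen to aromatic rings, showed the reverse order, with 27.0, 24.9 and 23.7 CPM in −N and 57.3, 54.8 and 49.3 CPM in −C from 13.6, 13.6 and 14.8 CPM in control. JGI-576333, annotated only with oxidoreductase activity, rose to 36.5 ± 4.44 CPM in −N and 34.4 ± 0.42 CPM in −C from 12.9 ± 3.26 CPM (SD, n = 3 each). The 3 redox members therefore covered a lean to −N, a lean to −C and no lean.

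The signalling list held 4 members, with 9.10% of annotated genes. Of these, 3 were protein kinases, enzymes that relay signals by phosphorylating other proteins, and the fourth was the ATPase JGI-671922, which was counted for a kinase-like domain. The kinase JGI-387419 had 10.3, 8.21 and 7.91 CPM in control, 18.6, 14.98 and 17.4 CPM in −N and 35.9, 33.8 and 29.3 CPM in −C, and thus leaned to −C. The kinases JGI-480913 and JGI-309329 were at 1.496 and 1.97 CPM in control and had L of 0.81 and 0.98 in −N and 1.013 and 0.84 in −C. Transcription regulators had 1 member, with 7.23% of annotated genes. This was JGI-453082, with a C2H2 zinc finger, a DNA-binding fold, in its Coprinopsis cinerea homologue. It had 1.51, 1.62 and 1.90 CPM in control, 5.24, 5.10 and 4.54 CPM in −N and 4.68, 6.71 and 4.06 CPM in −C.

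Protein breakdown had 1 member, with 6.78% of annotated genes. This was JGI-545830, annotated as ubiquitin, the small protein that marks others for the proteasome. It stood at 2.32, 3.03 and 1.37 CPM in control, 7.45, 6.04 and 7.34 CPM in −N and 5.03, 5.26 and 3.82 CPM in −C. The list of ribosome and translation genes had 1 member, with 5.965% of annotated genes. Its member JGI-592129 was counted for an annotated ligase that modifies a ribosomal protein and had L of 0.92 in −N and 1.03 in −C. Nucleic acid enzymes outside these lists were JGI-328304, an endodeoxyribonuclease at 0.96 ± 0.41 CPM in control, 2.96 ± 0.85 in −N and 3.07 ± 0.38 in −C (SD, n = 3 each), and JGI-510533, with the RNA-directed DNA polymerase activity of retroelements, which had 6.22 ± 0.99, 13.2 ± 1.99 and 13.6 ± 0.77 CPM. Copies of mobile elements are often near-identical, so reads of JGI-510533 may be shared with other loci.

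The lists were filled by words in the annotation held here. By these, no member fell into the lists of nitrogen transport and use, lipid and fatty acid metabolism, or small secreted proteins. These lists held 3.34%, 3.85% and 4.50% of annotated genes. No member fell either into protease inhibitors and lectins, with 1.64% of annotated genes, or into heat shock proteins, with 0.99%. With 25 annotated members a count of 0 is near such shares, and nothing is read from it. JGI-172945, whose cerato-platanin fold is found in small secreted fungal proteins, was thus not on the list of these. The nitrogen list held 98 of the 2934 annotated genes at the control minimum, 3.34%. Of these 98 genes, 6 had an L of at least 0.8 in −N, 22 in −C and 1 in both. By comparison 147 of all 2934 annotated genes reached 0.8 in −N, 225 in −C and 51 in both. Falls were also seen in these lists, with 7 nitrogen genes at or below -0.8 in −N and 6 in −C. The 42 members not named by the rule for named genes had control levels of 0.58 to 55.4 CPM, and their L ran from 0.80 to 1.44 in −N and from 0.81 to 1.42 in −C.

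The response to surplus NH4+ was mixed, within the limits that the rule set. Of the 68 members, 45 had an L below 0 in +N and 23 above, with a median of -0.15 against -0.02 over all genes at the control minimum. L was below -0.5 in 14 members. Among these were JGI-321372 at -0.65, JGI-671638 at -0.64, JGI-579134 at -0.63, and JGI-314025 at -0.52, whose +N libraries read 301, 304 and 313 CPM, all under the lowest control. It was above 0.5 in 4 members, JGI-634054, JGI-441366, JGI-706658 and JGI-172945. JGI-441366, annotated with zinc and nucleic acid binding, read 16.0, 12.7 and 12.7 CPM in +N, 9.79, 8.94 and 9.77 CPM in −N and 14.3, 12.2 and 11.4 CPM in −C, against 5.99, 4.71 and 3.79 CPM in control, so that its libraries lay above the controls both without NH4+ and in its surplus. JGI-706658, without annotation, had 88.3, 84.4 and 86.9 CPM in +N, overlapping its −N libraries, 85.6 to 93.2 CPM, and above its controls, 47.6 to 53.1 CPM.

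In surplus phosphate, 63 of the 68 members had an L above 0, with a median of 0.49 against 0.05 over all genes at the control minimum. The rule kept only genes under 0.7, and 31 members lay between 0.5 and this limit. That limit alone left out 44 genes that met all other conditions, and the 131 genes raised in both shortages had a median L of 0.59 in +P. JGI-477080 had 24.2 and 20.2 CPM in the 2 +P libraries, JGI-600674 73.7 and 72.0 CPM, and JGI-250508 75.2 and 81.2 CPM, all above their controls and below their shortage libraries. The 5 members below 0 in +P included JGI-192000 at -0.16 and JGI-670230 at -0.13.

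The +C and −P media did not enter the rule, and the contrast between them is not taken against the control libraries. Its fold changes therefore do not rest on the media that chose the members. Its p-values rest on them in part, because the spread was estimated from all libraries, including those used by the rule. In edgeR fitted to the +C and −P libraries only, 0 members were called, with a smallest adjusted p of 0.074. The contrast asks whether genes raised by shortage of NH4+ and of glucose also differ between surplus glucose and absence of phosphate. A member that was not called may still differ. All 68 members passed the filter on low counts, and in edgeR's quasi-likelihood test with Benjamini-Hochberg adjustment over 14725 genes, 4 of 68 were called at an adjusted p under 0.05, 5.88%, against 10.3% of all genes. Of the 4 members, 2 were higher in +C, with a background of 4.69%, and 2 lower, with a background of 5.66%. At an unadjusted p under 0.05 in edgeR there were 19 members, 16 higher and 3 lower. Of the 14725 genes tested, 1591 were higher at this p, 10.8%, and 1742 lower. The median log2 fold change of +C over −P was 0.14 over the members and 0.01 over all genes tested, and it was positive for 43 of the 68 members, 63.2%, against 51.0% of all genes.

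JGI-441366 and JGI-556344 were higher in +C. JGI-441366 had 6.82, 9.97 and 11.3 CPM in +C and 5.74, 4.38 and 5.80 CPM in −P, without overlap. Its log2 fold change was 0.67 with an SE of 0.17 (edgeR adjusted p = 0.0143). JGI-556344, annotated as a membrane protein that binds DNA and calcium, had 20.8, 24.5 and 26.2 CPM in +C and 17.2, 17.0 and 15.03 CPM in −P, again without overlap, with a log2 fold change of 0.43 and an SE of 0.11 (edgeR adjusted p = 0.0142). Without the first +C library the values were 0.83 and 0.47 (edgeR adjusted p = 0.0027 and 0.0131), and without the first −P library 0.75 and 0.49 (0.0181 and 0.0144). Without the third +C library both calls were lost, with 0.55 and 0.39 (0.0731 and 0.0590), JGI-441366 lost its call also without the second library of either medium (0.0547 without +C and 0.0794 without −P), and JGI-556344 without the third −P library (0.0778). Of the 68 members, 18 had every +C library above every −P library, where 2620 of the 14533 genes at the control minimum, 18.0%, did. The reverse held for 0 of 68, where 6.67% of all genes had it. These levels are unscaled CPM, in which the all-gene median L was 0.06 in +C and -0.02 in −P.

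JGI-314025 and JGI-462464 were lower in +C, but their libraries overlapped. Both are named for this result after their values were seen. JGI-314025 had 572, 473 and 500.0 CPM in +C and 454, 1071 and 997 CPM in −P. The log2 fold change was -0.79 with an SE of 0.20 (edgeR adjusted p = 0.0115). JGI-462464 had 15.4, 16.3 and 12.9 CPM in +C and 11.9, 25.5 and 29.1 CPM in −P, with a log2 fold change of -0.63 and an SE of 0.20 (edgeR adjusted p = 0.0480). In both genes the first −P library read as low as the controls and the other 2 −P libraries reached the level of the −C libraries. Without the first −P library the log2 fold changes were -1.07 and -0.93 (edgeR adjusted p = 7.8e-06 and 4.1e-05). Both calls were lost without either of the other −P libraries, with -0.58 and -0.52 without the second (edgeR adjusted p = 0.0950 and 0.188) and -0.65 and -0.38 without the third (0.0636 and 0.286). JGI-462464 also lost its call with the replicate number as a block and with a term for the letter i (edgeR adjusted p = 0.0705 and 0.163), and in 11 of 17 alternatives in all. The first −P library was the lowest of the 3 in 43 of the 68 members, but the share over all genes was not counted. The all-gene median L was also lowest in that library, at -0.053 against -0.023 and -0.010, so nothing is read from this count.

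**Figure D5:**
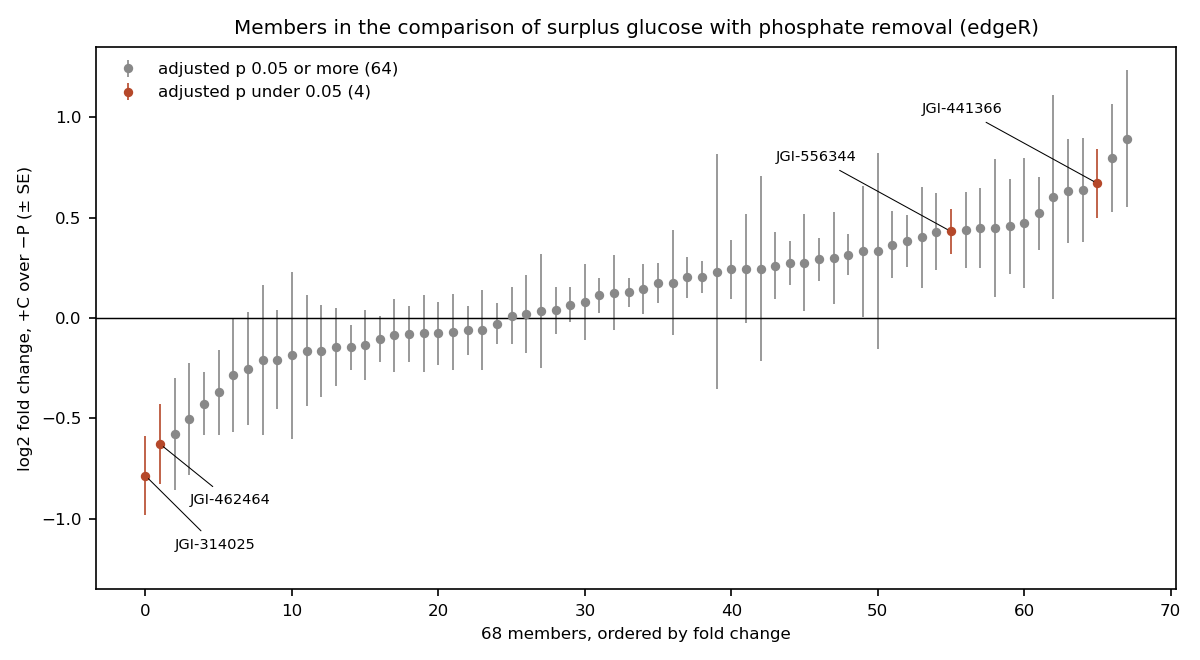
Fitted log2 fold change of +C over −P (vertical axis, bars are SE) for the 68 members in order of that value. JGI-314025 and JGI-462464 are called lower, JGI-441366 and JGI-556344 higher, and the other 64 members did not pass an adjusted p of 0.05.

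The members' calls in this contrast depended on single libraries. Without the first +C library 10 members were called, 7 of them higher in +C, which is 14.7% of members beside 13.8% of all genes. Without the first −P library 5 were called, 7.35% beside 10.2%. With any 1 of the controls left out 3 were called, 4.41% beside 10% to 10.4% of all genes. Without the second −P or second +C library 2 were called, 2.94% beside 7.04% and 7.29% of all genes, and without the third library of either medium 1, or 1.47% beside 7.81% without the −P and 7.45% without the +C library. When edgeR was fitted to the +C and −P libraries only, 0 members and 494 of all genes, 3.62%, were called. In the fit with all media 1523 of all genes were called. In the smaller fit 10 members had an unadjusted p under 0.05, where 2443 of the 13642 genes tested, 17.9%, did. DESeq2, fitted to all media, called 4 members, 5.88% beside 11.7% of all genes. The 4 calls are those of the spread pooled over 7 media.

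Both media were also set against control, whose libraries entered the rule, so these values support nothing about the members. In +C 17 of 68 members were called, all higher, against 9.05% of all genes called, 4.29% higher and 4.75% lower in edgeR's quasi-likelihood test. All 3 +C libraries lay above the controls in 32 members, where 16.4% of all genes at the control minimum did. Without the first +C library 13 members were called, 19.1% beside 12.7% of all genes, and without the first −P library 20, 29.4% beside 10.1%. Without the first control 11 were called, 16.2% beside 7.55% of all genes. Without the second or the third control 10 were called, 14.7% beside 6.35% and 6.22% of all genes. With only the +C and control libraries in the fit 4 were called, 5.88% beside 4.8% of all genes. The strongest was JGI-192000, with a log2 fold change of 1.78 and an SE of 0.36 (edgeR adjusted p = 0.0024), or 2.21 without the first +C library (2.9e-06). JGI-611606, without annotation and named after its values were seen, was at 7.76, 8.50 and 9.50 CPM in +C and 5.06, 4.98 and 5.04 CPM in control, a log2 fold change of 0.69 with an SE of 0.13 (edgeR adjusted p = 0.0014). The major facilitator JGI-600674 rose to 67.3, 78.1 and 73.3 CPM in +C, a log2 fold change of 0.36 with an SE of 0.09 (edgeR adjusted p = 0.0096). Its libraries lay above the controls at both the lowest and the highest glucose.

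Against control, −P gave 0 called members, with 0.0951% of all genes called, all of these higher. At an unadjusted p under 0.05 in edgeR there were 15 members, all higher, where 753 of the 14725 genes tested, 5.11%, were higher at this p and 727 lower. DESeq2 called 2 members and 113 of all genes. The smallest edgeR adjusted p among members was 0.0648, in JGI-314025. The median log2 fold change of the members was 0.24, 62 of 68 were positive, and 9 had all −P libraries above the controls, where 4.75% of all genes at the control minimum did. Without the first −P library 5 members were called in edgeR, 7.35% beside 4.17% of all genes.

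For comparison, the same contrast of +C with −P was read over genes that met the rule in 1 shortage only and over genes lowered in both. Over all genes tested 4.69% were called higher and 5.66% lower. Of 278 genes raised in −N only, 15 (5.40%) were called higher and 5 (1.80%) lower, with a median log2 fold change of 0.16. Of 327 raised in −C only, 28 (8.56%) were called higher and 20 (6.12%) lower, with a median of 0.06. Of 194 genes lowered in both shortages, 15 (7.73%) were called higher and 64 (33.0%) lower, with a median of -0.24. These lists were not tested against each other. Their median control levels were 3.52, 10.5 and 38.2 CPM in the order given, against 4.77 CPM for the members. Shares called at such unlike levels are not directly comparable. The list of lowered genes also had no limits on +N and +P.

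Near the limits of the rule, members and non-members hardly differed. JGI-523777 was inside with an L of 0.8001 in −N, JGI-250508 with 0.6973 in +P and JGI-300689 with 0.8030 in −C. Just outside were JGI-327504 and JGI-625708, with 0.7972 and 0.7950 in −N, and JGI-328588, with 0.7923 in −C. The number of members also depended on scaling. The median of all genes at the control minimum lay 0.09 above control in −N with unscaled CPM and 0.01 with TMM-scaled CPM, and with TMM scaling 39 genes met the rule, 37 of them among the 68. The 31 members lost included JGI-331213, JGI-671638, JGI-671146, JGI-441366, JGI-670230, JGI-387419, JGI-545830 and JGI-304813, and the lowest L of the 31 in either shortage with TMM scaling was 0.7184, in JGI-523777.

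Apart from expression, the members shared little that could be read here. Their length, as recovered from counts and RPKM, had a median of 1040 bp and ran from 258 to 3960 bp, against a median of 1131 bp over all genes at the control minimum. Of the 68, 23 were matched by number to the RefSeq gene table (assembly V1.0), and only JGI-316324 and JGI-334902 were direct neighbours in its gene order. JGI-316324, without annotation, read 24.3, 22.4 and 21.1 CPM in −N, and JGI-334902, a P-loop hydrolase by its Coprinopsis cinerea homologue, 6.69, 9.10 and 7.76 CPM, from control means of 11.6 and 3.54 CPM.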

How the data were processed

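Per the study's methods, the 20 mycelium libraries were prepared from total RNA with a stranded mRNA kit and sequenced. Reads were trimmed and aligned to the Laccaria bicolor v2 reference transcripts with CLC Genomics Workbench. The authors deposited, for each of 23130 gene models, a read count and an RPKM value (reads scaled by transcript length and by the mapped total). Whether the counts are of unique or of all mapped reads, and whether strand was used, is not given in the sources used here. Here counts were divided by library totals (CPM), L was computed on mean CPM with a pseudocount of 1, and RPKM served only for levels per length. Counts were tested with edgeR 4.0.16 (R 4.3.3; TMM, filterByExpr, quasi-likelihood F-test, 1 fit of all 20 libraries with a mean per medium, Benjamini-Hochberg adjustment over 14725 genes, adjusted p under 0.05), with DESeq2 1.42.0 as an alternative, and the scripts were tested on simulated data. The precision follows from totals of 9470656 to 33122623 reads, at which 3 reads are 0.09 to 0.32 CPM.

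The members and lists were chosen with earlier results of these data known. Named members were the 8 with the highest summed L in −N and −C, the 6 with the highest mean RPKM, those called in +C against −P without overlap, up to 12 with an informative annotation, those at the limits of the rule, and those called in −P against control, of which there were 0. Further members are named because they belong to a function list or are neighbours, and JGI-706658 and JGI-611606 after their values were seen. Annotation words came from the study's supplementary tables, which are held in part, and from RefSeq symbols. Sequences were not used here. Alternatives were other scalings, filters, samples in the fit, a replicate block, a term for the letter i in library names, another pseudocount and each library left out. The replicate pairs of a medium were not identical. Replicates are labelled biological, and p-values measure the spread between these libraries.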

Additional observations from a re-analysis of the deposited data

How the results depend on the processing

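The number of genes that met the rule was 39 with TMM-scaled CPM and 37 with CPM scaled by DESeq2 size factors, and 37 of the 68 were shared in either case. It was 93 with a pseudocount of 0.5, of which 56 were shared, and 47 to 76 when single libraries were left out. Without the third control 37 of 47 were shared and without the second 46 of 76.

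In +C against −P, 0 members and 494 of all genes were called when only the compared media were fitted. Single libraries left out gave 1 to 10 members, 1039 to 2036 of all genes and a median log2 fold change of 0.06 to 0.18. In +C against control, 4 members were called with only the compared media, 5.88% beside 4.8% of all genes. With a library left out 10 to 20 were called, beside 6.1% to 12.7% of all genes. In −P against control, DESeq2 called 2 members beside 0.767% of all genes, and a fit without a filter 3 beside 0.333%. Fits with a library left out called 0 to 5 members in this contrast, beside 0% to 4.17% of all genes. With upper quartile scaling 895 of 1682 genes called in +C against −P were higher, against 690 of 1523 with TMM. With the replicate number as a block, 4 members and 1425 of all genes were called in +C against −P. That fit called 14 members in +C against control, 20.6% beside 8.49% of all genes. In −P against control it called 0 members and 0 of all genes. Whether the numbers pair the cultures was not settled. Deviations of same-numbered +C and −P libraries correlated at 0.27, 0.03 and 0.20, and those of differently numbered ones at -0.27 to 0.21. Same-numbered +C and control libraries correlated at -0.06, 0.305 and -0.25. No called gene value reversed among 357 recomputed, and 84 lost their call. JGI-462464 lost it in 11 of 17 alternatives, JGI-314025 in 5, JGI-441366 in 4 and JGI-556344 in 3, with only the compared media among them each time. In +C against control, JGI-611606 and JGI-556344 lost it in 0 of 17. Of the members, 35 lay under 5 CPM in control, and how depth limits their calls was not tested.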
